A study of Mus musculus with 12 samples.

Results

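This account covers 37 genes of mitosis and the spindle, chosen by name as a functional group and looked up by gene symbol, among 18820 genes measured. All 37 were found. Where a gene had several probe sets (4 of the 37), the probe set that was brightest on average was taken. Dimmer probe sets of Mad2l1 and Top2a gave changes of the same sign in every pairwise comparison, that of Kif11 differed in sign for BCR loss in CHIR99021 cultures, and that of Prc1 there and in 2 more. Dividing cells switch on a shared set of genes late in the cycle: cyclin-dependent kinase 1 with its cyclins starts mitosis, polo-like and Aurora kinases build the spindle, and kinetochore proteins tie chromosomes to it. A checkpoint holds the cell until every chromosome is attached, and a last group of proteins cuts the cell apart. Many of these genes are activated together through a short promoter element, the cell cycle genes homology region, and the level of the set in a tissue is widely read as a sign of how many of its cells divide.

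The arrays (12 Affymetrix Mouse Gene 1.1 ST) measured RNA of B lymphoma cells from l-MYC;B1-8f mice on a C57BL/6J x BALB/c background. All cultures carried the MYC transgene together with a heavy chain of the B-cell receptor (BCR) that Cre can remove, and all had received TAT-Cre, a cell-permeable recombinase. Both kinds of cell that result, BCR-positive and BCR-negative, then grew side by side in mixed cultures for 4 days without treatment or with CHIR99021, an inhibitor of the kinase GSK3, and were sorted. Lymphomas 2564, 2646 and 2676 gave 1 array to each of the 4 groups, so each group had n = 3 (untreated BCR-positive, untreated BCR-negative and both with CHIR99021), and no dose of CHIR99021 is stated in the labels. The groups stand for 3 tumours, and the BCR-positive cells had also been exposed to TAT-Cre. Ighv1-72, the variable segment from which the B1-8 heavy chain derives, was lower in the BCR-negative cells of all 3 lymphomas: it fell by 2.11 ± 0.331 on the log2 scale (± standard error, here and below) without treatment (limma, adjusted p = 0.0176) and fell by 2.95 ± 0.331 with CHIR99021 (limma, adjusted p = 0.0498). The B-cell genes Cd79a, Cd79b, Pax5 and Cd22 read between 8.34 and 11.77 on every array, while Ms4a1 (CD20) read at most 3.92, under the 30th percentile of all genes' means (4.12). Of 15 markers of T cells, macrophages, fibroblasts and plasma cells, Cd3d, Cd3g, Cd4 and Adgre1 stayed below that level on all 12 arrays and Lyz2 on 11. Cd3e, Cd8a, Cd68, Col1a1, Col1a2, Col3a1 and Prdm1 lay above it on every array, between 4.14 (Prdm1) and 6.79 (Cd68). Xbp1 (8.59 to 9.56) and Sdc1 (7.96 to 8.98) were high throughout and Csf1r reached 8.53. In untreated cultures Prdm1, a plasma cell regulator, rose with BCR loss (1.62 ± 0.293; limma, adjusted p = 0.0248), and the summed level of 3 plasma cell markers ran from 21.0 to 22.2 in BCR-positive and 21.3 to 24.8 in BCR-negative cells. With CHIR99021 in BCR-negative cells Lyz2 rose (0.46 ± 0.1; limma, adjusted p = 0.0388) and Cd79b fell (-0.33 ± 0.0604; limma, adjusted p = 0.024), and the sum of 4 macrophage markers ran from 18.8 to 20.8 untreated and 19.2 to 21.8 treated. In BCR-positive cells CHIR99021 gave -0.30 ± 0.0604; limma, adjusted p = 0.107 for Cd79b and 0.95 ± 0.231; limma, adjusted p = 0.168 for Csf1r, in the same direction in all 3 lymphomas, and the macrophage sum ran from 18.3 to 20.9 untreated and 18.5 to 22.1 treated. Other markers of these lists did not all go the same way. For BCR loss in untreated cultures Xbp1 had -0.12 ± 0.0988 (-0.30, 0.16 and -0.22 by lymphoma) and Sdc1 0.35 ± 0.153 (0.02, 0.83 and 0.21). For CHIR99021 in BCR-positive cells Adgre1 had -0.04 ± 0.0507, Cd68 -0.16 ± 0.144 and Lyz2 -0.04 ± 0.1. In BCR-negative cells Adgre1 had -0.04 ± 0.0507, Cd68 -0.13 ± 0.144 and Csf1r 0.36 ± 0.231. The part of these markers in the results below was not tested.

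The promoter of the members is shown first, since they are known to be switched on together. The RefSeq promoter table (GRCm38.p6), 250 bases before to 50 bases after the start of transcription, held 32 of the 37 genes; Aurkb, Ccna2, Dlgap5, Incenp and Tpx2 had no entry. The letters TTTGAA, the common form of the cell cycle genes homology region, were looked for on both strands. They stood in the window of 25 of 32 members (78.1%), against 20.2% of the 27025 genes in the table. In 24 members (75%) they lay within 50 bases of the start, against 5.72% of all genes. Of 51 genes with a window in a wider mitosis list, described below, 23 (45.1%) held them there, and of 27 DNA replication genes 2. CCAAT, the site of the factor NF-Y, stood in the windows of 24 of the 32 members (75%) against 41.1% of all genes, and TTTAAA, a variant of the homology region, in 8 (25%) against 14.9%. CCAAT was about as frequent in the wider mitosis list (74.5%), and stood in 66.7% of the replication genes, so it was not particular to the members. In 1 window a TTTGAA shared bases with a CCAAT. These matches describe letters in a window and show no binding.

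The following stretches of 30 bases around the TTTGAA nearest to the start, 5′ to 3′ on the strand of the gene, are shown for 7 members whose values are given below; capitals mark the homology element TTTGAA, or TTCAAA where it lies on the other strand, and the NF-Y motif CCAAT, read as ATTGG on the other strand.
Anln (chr9:22389168-22389197, minus strand): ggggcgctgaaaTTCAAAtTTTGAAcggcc
Aurka (chr2:172370521-172370550, minus strand): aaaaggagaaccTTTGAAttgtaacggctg
Plk1 (chr7:122159453-122159482, plus strand): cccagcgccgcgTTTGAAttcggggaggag
Ccnb2 (chr9:70421533-70421562, minus strand): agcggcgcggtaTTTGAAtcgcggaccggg
Cenpf (chr1:189688067-189688096, minus strand): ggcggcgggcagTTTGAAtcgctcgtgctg
Spc25 (chr2:69206172-69206201, minus strand): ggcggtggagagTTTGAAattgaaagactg
Kif11 (chr19:37376351-37376380, plus strand): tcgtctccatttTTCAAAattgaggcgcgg

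The 100 bases before the start are shown for Cdk1 and Cdc20, which hold both motifs there, and for Nek2 and Melk, whose windows hold no TTTGAA although they gave the smallest p of the members in 1 comparison or more; capitals mark the same motifs.
Cdk1 (chr10:69352913-69353012, minus strand): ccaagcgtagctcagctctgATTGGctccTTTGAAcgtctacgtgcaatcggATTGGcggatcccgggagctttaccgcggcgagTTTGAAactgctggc
Cdc20 (chr4:118437344-118437443, minus strand): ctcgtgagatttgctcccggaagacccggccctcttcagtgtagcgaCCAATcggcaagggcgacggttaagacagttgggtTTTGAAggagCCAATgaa
Nek2 (chr1:191821373-191821472, plus strand): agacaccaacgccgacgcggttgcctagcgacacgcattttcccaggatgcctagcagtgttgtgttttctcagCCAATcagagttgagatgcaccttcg
Melk (chr4:44300817-44300916, plus strand): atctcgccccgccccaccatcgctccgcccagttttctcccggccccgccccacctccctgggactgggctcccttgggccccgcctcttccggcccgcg

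The members with TTTGAA (25 genes) and those without it (Birc5, Bub1, Cenpe, Mad2l1, Melk, Nek2 and Nuf2) had median log2 changes of -0.15 and -0.21 for BCR loss in untreated cultures, and of -0.15 and -0.10 for CHIR99021 in BCR-positive cells. No test was made of these differences.

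The mitosis genes were expressed on every array. Levels here are log2 values, and each probe set has its own sensitivity, so they are compared between arrays and not between genes. Of the members' variance (sum of squares over the 12 arrays), 58.2% lay between lymphomas and 22.9% between the 4 groups, against 76.7% and 14.3% over all genes. Spc25, a subunit of the NDC80 complex that grips microtubules at the kinetochore, differed most between lymphomas, with means over 4 arrays of 7.17, 7.86 and 7.99 in 2564, 2646 and 2676. Its partner Nuf2 had 8.73, 9.54 and 9.55, also lowest in 2564. The protease separase gene Espl1 ran the other way (8.86, 8.22 and 8.19), while the kinetochore motor Cenpe was the most even (8.87, 8.89 and 8.91). Because of such differences, all changes below were taken within lymphomas.

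After subtraction of each lymphoma's mean, 1 array stood apart from the other 11. In the untreated BCR-negative cells of lymphoma 2646, 36 of 37 members lay below that lymphoma's mean, on average by 0.23. The untreated BCR-negative arrays of 2564 and 2676 averaged 0.01 and 0.02. Untreated BCR-positive arrays were above the mean in all 3 lymphomas (0.09, 0.13 and 0.07). CHIR99021-treated BCR-positive arrays averaged -0.07, 0.03 and -0.11, and treated BCR-negative arrays -0.03, 0.07 and 0.02. In sorted cells, fewer cells in mitosis and less of these RNAs per cell cannot be told apart. The results that follow are therefore given by lymphoma, and with and without that array where it decides them.

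**Figure D1:**
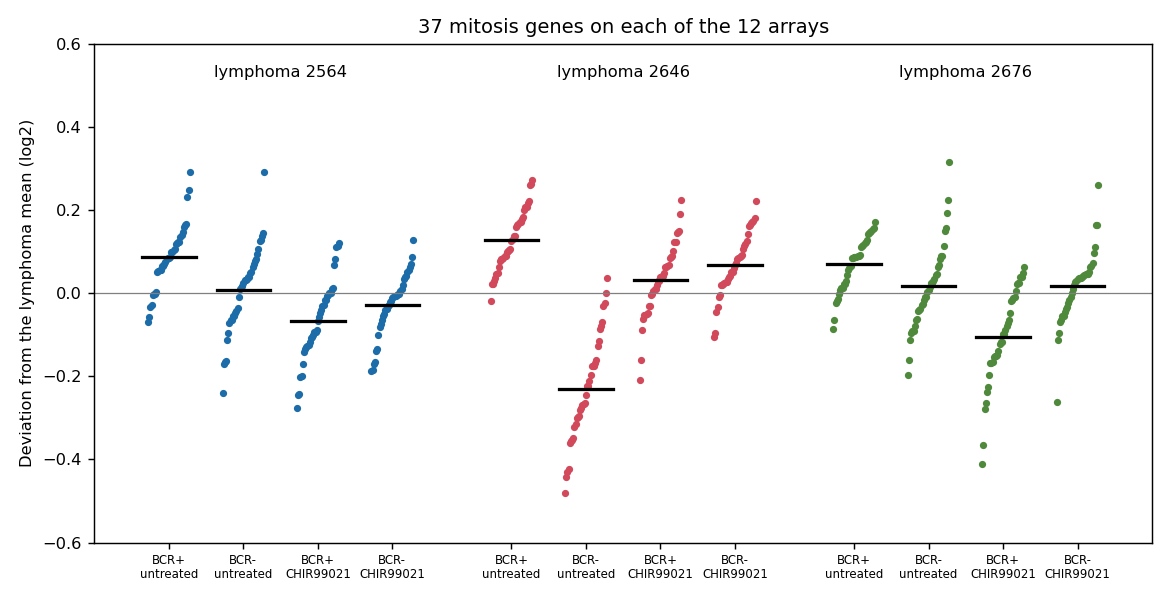
Each point is 1 of the 37 mitosis genes on 1 array, as the deviation (log2) from that gene's mean over the 4 arrays of the same lymphoma, sorted within the array; black bars are means over the 37 genes. The untreated BCR-negative array of lymphoma 2646 lies lowest, with a mean of -0.23.

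By the study's design, cells were sorted once BCR-negative cells were seen to be lost from the mixed cultures, which is not measured here. The first comparison addresses whether they then held fewer mitotic transcripts than the BCR-positive cells beside them. Of the 37 members, 34 had a negative mean change and none passed the test over all genes, where 4.2% were called (limma, Benjamini-Hochberg adjusted p under 0.05). Their median log2 change was -0.18, against -0.0023 for all genes. At an unadjusted p under 0.05, 12 members (32.4%) were lower, against 12.2% of all genes. The median was -0.07, -0.39 and -0.08 in lymphomas 2564, 2646 and 2676, so most of it came from 2646, where all 37 were lower. Without the untreated BCR-negative array of 2646 it was -0.05, and without lymphoma 2646 -0.08. The count of 12 was 4 without that array, 2 without that lymphoma and 18 without the untreated BCR-negative array of 2676.

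Among the mitotic kinases and cyclins, Melk, a kinase of dividing progenitor cells, came nearest to the threshold. It read 7.71, 7.80 and 7.49 in the BCR-positive cells of 2564, 2646 and 2676 and 7.45, 7.33 and 7.39 in their BCR-negative cells. It was lower in each lymphoma and the groups did not overlap, with a change of -0.27 ± 0.0684 (limma, adjusted p = 0.0551, n = 3 lymphomas). Aurka, the Aurora kinase of the spindle poles, read 9.55, 9.57 and 9.13 against 9.31, 9.08 and 9.01, lower in each lymphoma but with overlapping groups, a change of -0.28 ± 0.0916 (limma, adjusted p = 0.11). The master kinase Cdk1 had -0.15 ± 0.0869, its partner cyclin A2 (Ccna2) -0.10 ± 0.0587 and the polo-like kinase Plk1 -0.16 ± 0.0585, none of them past the threshold. Cyclin B2 (Ccnb2) had 0.02 ± 0.0699, 1 of the 3 members with a positive mean.

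All 4 genes of the chromosomal passenger complex, which corrects faulty attachments, had negative changes. Its scaffold Incenp read 9.84, 9.51 and 9.11 in BCR-positive and 9.65, 8.89 and 8.91 in BCR-negative cells. The difference held in every lymphoma and was widest in 2646, with a mean of -0.34 ± 0.0923 (limma, adjusted p = 0.0692), the most negative value of the 37. Borealin (Cdca8) had -0.30 ± 0.0788 (limma, adjusted p = 0.064), survivin (Birc5) -0.20 ± 0.128 and the complex's kinase Aurkb -0.18 ± 0.0673. For Birc5 the lymphomas parted, with -0.06, -0.64 and 0.11 in 2564, 2646 and 2676.

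The 7 genes grouped here as checkpoint and anaphase genes, among them Cdca3, a gene of entry into mitosis, were also all negative, from -0.23 to -0.10. Mad2l1, which encodes the checkpoint protein MAD2, had -0.23 ± 0.0893, BubR1 (Bub1b) -0.20 ± 0.071 and Cdc20, the activator that the checkpoint restrains, -0.10 ± 0.0766. The kinetochore genes were mixed: Nuf2 had -0.29 ± 0.105 and Spc25 -0.24 ± 0.11, whereas the centromeric histone Cenpa (0.03 ± 0.0749) and Cenpf (0.03 ± 0.0975) had positive means. Ndc80, which names the complex of Nuf2 and Spc25, had -0.07, -0.43 and 0.34 in 2564, 2646 and 2676. Spindle motors and assembly factors lay between -0.20 (the depolymerase Kif2c, ± 0.0657) and -0.09 (the pole-separating motor Kif11). In the cytokinesis group, the ring scaffold anillin (Anln) had -0.28 ± 0.0879 (limma, adjusted p = 0.106), the abscission gene Cep55 -0.26 ± 0.123 and the midzone bundler Prc1 -0.21 ± 0.0794. Top2a, which untangles chromosomes, had -0.12 ± 0.0969. Cdca3, which triggers entry into mitosis, had -0.18 ± 0.08.

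Scaling moved this comparison. The mean of the array medians over the 18820 genes was 5.11 in untreated BCR-negative and 5.08 in untreated BCR-positive cells, and after subtraction of array medians 3 members were called lower, namely Melk, Cdca8 and Incenp, with a median of -0.21 for the 37. After cyclic loess none was called and the median was -0.11. With a block for each lymphoma and culture Nuf2 alone was called (limma, adjusted p = 0.045).

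**Figure D2:**
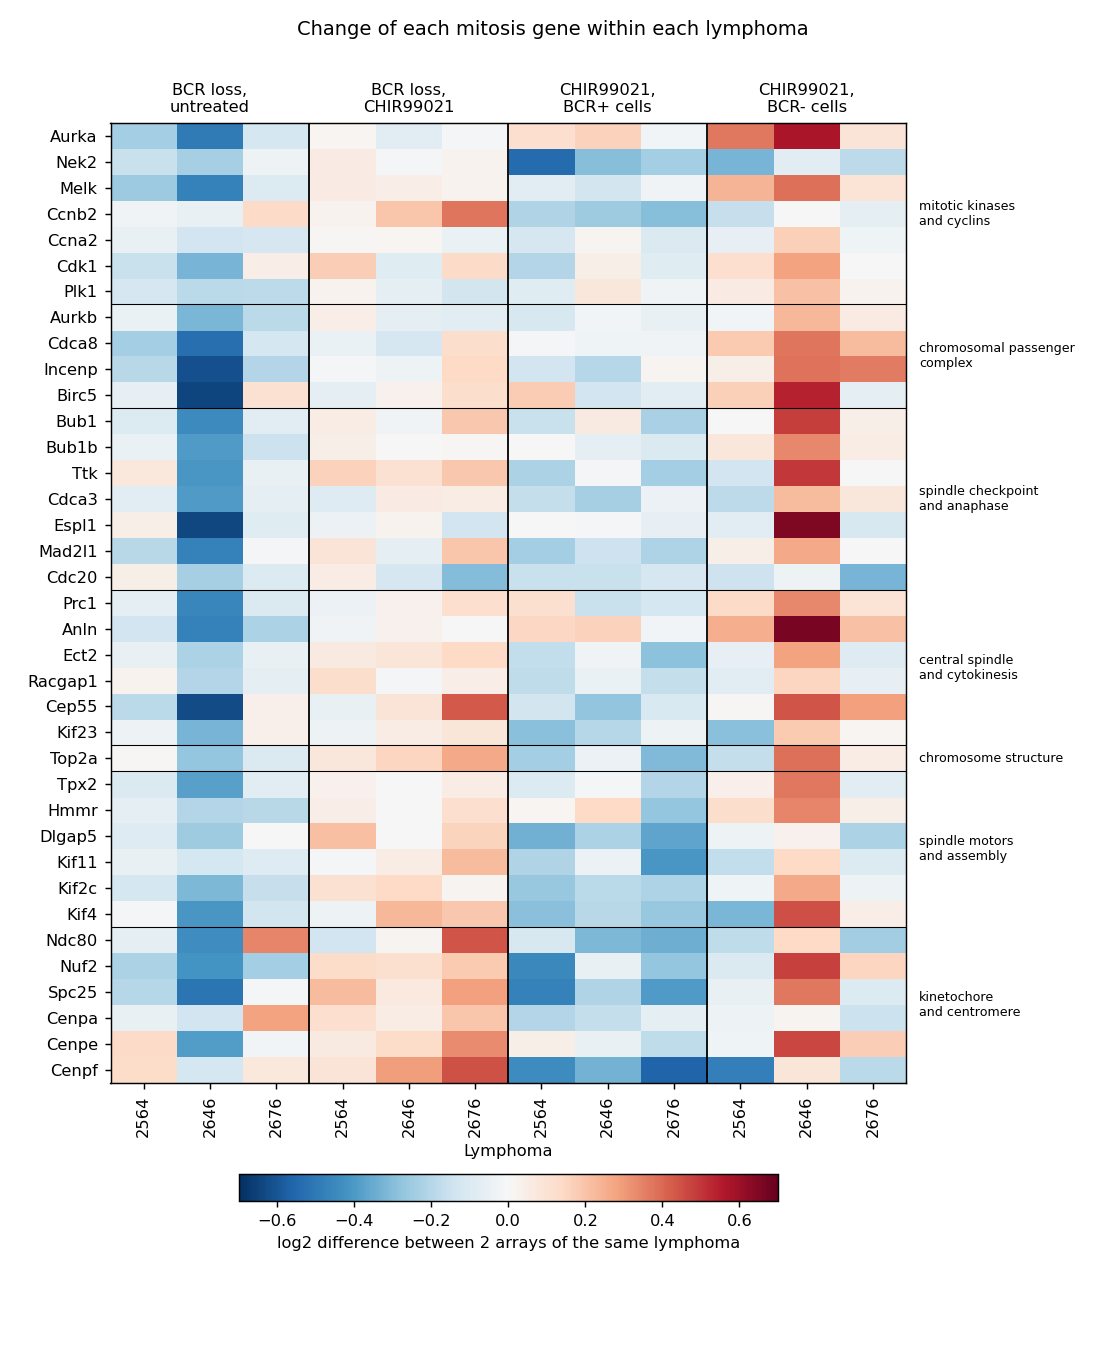
Each row is a mitosis gene, ordered by role, and each column a log2 difference between 2 arrays of the same lymphoma, for BCR loss in untreated and in CHIR99021 cultures and for CHIR99021 in BCR-positive and BCR-negative cells. Blue is lower and red higher; the columns of lymphoma 2646 are the darkest for BCR loss in untreated cultures and for CHIR99021 in BCR-negative cells.

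The same question under GSK3 inhibition gave smaller values of the other sign. With CHIR99021 in both populations, 30 of 37 members were higher on average in BCR-negative cells, with a median log2 change of 0.05 (0.05, 0.03 and 0.12 in 2564, 2646 and 2676). None passed, where 0.0159% of all genes were called, and 2 members, Cenpf and Ccnb2, had an unadjusted p under 0.05 on the higher side (5.41%, against 4.87% of all genes). With array medians subtracted 23 were positive and the median was 0.02, and the count of 2 ran from 0 without lymphoma 2676 to 6 without the untreated BCR-negative array of 2646. The kinetochore gene Cenpf read 7.85, 8.11 and 8.03 in BCR-positive and 7.94, 8.40 and 8.48 in BCR-negative cells of the treated cultures. It was higher in each lymphoma, by 0.28 ± 0.0975 on average (limma, adjusted p = 0.522), and the ranges overlapped. Ccnb2 had 0.20 ± 0.0699 (limma, adjusted p = 0.522), Spc25 0.19 ± 0.11 and Cenpe 0.18 ± 0.101, and all 6 kinetochore genes were positive.

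By contrast the kinases nearest to the threshold without treatment were close to 0 here, with 0.04 ± 0.0684 for Melk and -0.03 ± 0.0916 for Aurka. The passenger complex lay between -0.03 and 0.03. Anln had 0.0025 ± 0.0879, and its levels were 9.41, 9.41 and 9.13 in BCR-positive and 9.39, 9.44 and 9.13 in BCR-negative cells. Cdc20 was the most negative member, with -0.12 ± 0.0766 and 0.05, -0.12 and -0.30 by lymphoma.

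The effect of GSK3 inhibition on cells that keep their receptor was read from BCR-positive cells with and without CHIR99021. Here 35 of the 37 had a negative mean change, with a median of -0.14 (all genes 0.0027) and -0.15, -0.06 and -0.17 in 2564, 2646 and 2676. None passed over all genes (0.0744% called), and 8 (21.6%) were lower at an unadjusted p under 0.05, against 5.36% of all genes. In contrast to BCR loss, the shift was smallest in lymphoma 2646. Without that lymphoma the median was -0.15, and over the 12 single arrays left out it ran from -0.18 to -0.099. With samples left out, the count of 8 ran from 4 without lymphoma 2564 to 15 without lymphoma 2646. It was 3 with no replicate block and 16 over only the arrays compared.

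Nek2, a kinase that parts the centrosomes before mitosis, had the smallest p. It read 9.08, 9.07 and 9.18 untreated and 8.54, 8.77 and 8.94 with CHIR99021, lower in each lymphoma and with no overlap between the groups, a change of -0.36 ± 0.0717 (limma, adjusted p = 0.11). Cenpf read 8.29, 8.44 and 8.59 and 7.85, 8.11 and 8.03, again without overlap, with -0.44 ± 0.0975, the most negative of the 37 (limma, adjusted p = 0.137). The spindle factor Dlgap5 (HURP) had -0.31 ± 0.0723 (limma, adjusted p = 0.154) and Ccnb2 -0.25 ± 0.0699, with -0.21, -0.25 and -0.30 by lymphoma. Among motors, Kif4 had -0.25 ± 0.113, Kif2c -0.22 ± 0.0657 and Kif11 -0.22 ± 0.0805. The 6 kinetochore genes ran from -0.44 to -0.06. Among them the genes of the NDC80 complex had -0.36 ± 0.11 (Spc25), -0.26 ± 0.105 (Nuf2) and -0.26 ± 0.141 (Ndc80).

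Other members were near 0. Plk1 had -0.01 ± 0.0585, Birc5 -0.01 ± 0.128, Cdca8 -0.02 ± 0.0788 and Espl1 -0.02 ± 0.135. Only Anln (0.10 ± 0.0879) and Aurka (0.09 ± 0.0916) had positive means, each with 1 lymphoma of the 3 on the other side of 0 (0.12, 0.16 and -0.02 for Aurka). In the checkpoint group Mad2l1 had -0.20 ± 0.0893, Ttk (MPS1) -0.16 ± 0.115 and Cdc20 -0.14 ± 0.0766, and in the cytokinesis group Kif23, a subunit of centralspindlin, had -0.18 ± 0.092 and the cytokinesis gene Ect2 -0.16 ± 0.0805.

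**Figure D3:**
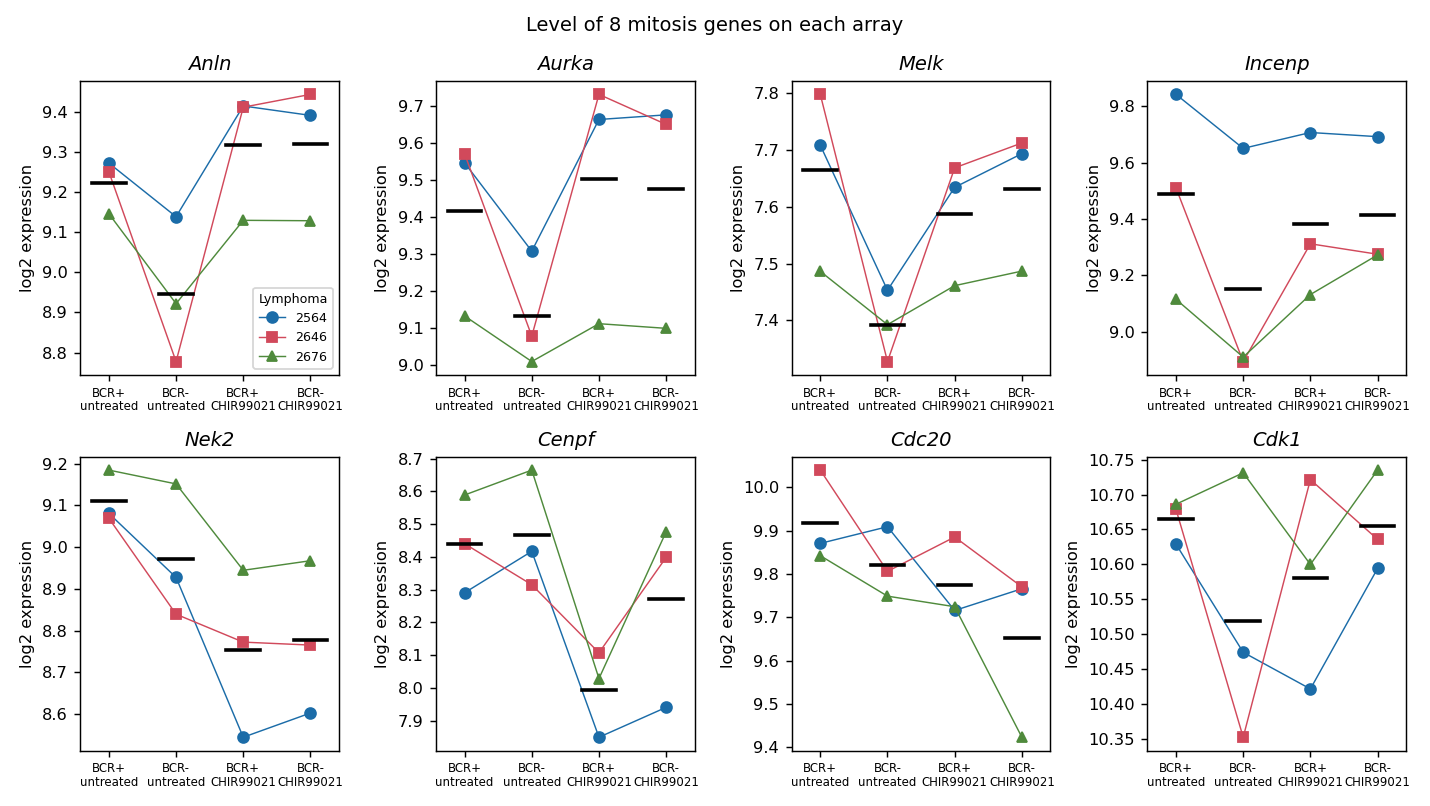
Log2 expression of 8 mitosis genes on each of the 12 arrays, by group; points and lines of 1 colour are the arrays of 1 lymphoma and black bars are group means (n = 3), and the axes do not start at 0. Nek2 and Cenpf are lower with CHIR99021 in BCR-positive cells of all 3 lymphomas, and Anln is lowest in untreated BCR-negative cells of each lymphoma.

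CHIR99021 in BCR-negative cells was the only comparison in which a member was called. This comparison shares its untreated BCR-negative arrays with BCR loss in untreated cultures, so opposite changes in them are not independent. Anln rose by 0.37 ± 0.0879 (1.3-fold; limma, adjusted p = 0.0493), 1 of 37 members, where 1.91% of all genes were called higher. It read 9.14, 8.78 and 8.92 untreated and 9.39, 9.44 and 9.13 with CHIR99021 in lymphomas 2564, 2646 and 2676. Each lymphoma was higher, by 0.25, 0.67 and 0.21, and the groups overlapped, the treated level of 2676 lying just below the untreated one of 2564. The call was at the threshold: it held in 5 of 23 other settings, and the adjusted p in limma ran from 0.0402 to 0.624 over them. With no replicate block, a random replicate block, only the arrays compared or cyclic loess, Anln was not called. Without lymphoma 2646 the change was 0.23, not past the threshold.

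Over the set, 28 members had a positive mean and 9 a negative one, with a median of 0.10 (all genes 0.01). At an unadjusted p under 0.05, 6 (16.2%) were higher, against 11.4% of all genes, and 1, Nek2, was lower. The median was -0.03, 0.33 and 0.0039 in 2564, 2646 and 2676, so 2646 set it. Without the untreated BCR-negative array of 2646 it was -0.02, and without lymphoma 2646 -0.03, of the opposite sign. After cyclic loess it was 0.04, with 24 members positive. The count of 6 was 3 without lymphoma 2646 and 10 without the untreated BCR-negative array of 2676.

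Aurka read 9.31, 9.08 and 9.01 untreated and 9.68, 9.65 and 9.10 treated, with 0.34 ± 0.0916 (limma, adjusted p = 0.0706); it was higher in each lymphoma, by 0.37, 0.57 and 0.09. Melk had 0.24 ± 0.0684 (limma, adjusted p = 0.0852), and without the untreated BCR-negative array of 2676 both Aurka and Melk were called (limma, adjusted p = 0.0305 and 0.0453). All 4 passenger genes were positive, with 0.26 ± 0.0923 for Incenp, 0.26 ± 0.0788 for Cdca8, 0.21 ± 0.128 for Birc5 and 0.09 ± 0.0673 for Aurkb. In the checkpoint group Bub1b had 0.16 ± 0.071 and Bub1 0.17 ± 0.108, the latter with -0.0026, 0.49 and 0.04 by lymphoma. The cytokinesis genes Cep55 and Prc1 had 0.25 ± 0.123 and 0.19 ± 0.0794, while Racgap1, the other subunit of centralspindlin, had 0.0034 ± 0.067. Hmmr, a spindle-pole protein, had 0.17 ± 0.0838 and Tpx2, which activates Aurora A, 0.11 ± 0.087.

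The 9 members with negative means were Nek2 (-0.19 ± 0.0717), Cenpf (-0.19 ± 0.0975), Cdc20 (-0.17 ± 0.0766), Ndc80 (-0.09), Ccnb2 (-0.08), Dlgap5 (-0.07), Cenpa (-0.05), Kif11 (-0.04) and Kif23 (-0.03). Nek2 read 8.93, 8.84 and 9.15 untreated and 8.60, 8.77 and 8.97 treated, lower in all 3 lymphomas (limma, adjusted p = 0.17). Cdc20 was also lower in all 3, with -0.14, -0.04 and -0.33, and Cenpf in 2564 and 2676 (-0.48, 0.08 and -0.19). The effects of CHIR99021 in the BCR-positive and the BCR-negative cells come from different arrays of the same 3 lymphomas. Across the 37 genes, which are not independent replicates, they correlated at Pearson's r = 0.733 and Spearman's rho = 0.665: 9 genes were negative in both, 2 (Anln and Aurka) positive in both and 26 negative in BCR-positive and positive in BCR-negative cells. For BCR loss without and with CHIR99021, also from separate arrays, r was 0.379 and rho 0.319.

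By role, the median change with CHIR99021 in BCR-positive cells was -0.08 for the 7 kinases and cyclins, -0.04 for the 4 passenger complex genes, -0.14 for the 7 checkpoint and anaphase genes, -0.15 for the 6 cytokinesis genes, -0.22 for the 6 spindle motor and assembly genes and -0.26 for the 6 kinetochore genes. In BCR-negative cells it was 0.10 for the 7 kinases and cyclins, 0.24 for the 4 passenger complex genes, 0.12 for the 7 checkpoint and anaphase genes, 0.12 for the 6 cytokinesis genes, 0.06 for the 6 spindle motor and assembly genes and 0.01 for the 6 kinetochore genes. The kinetochore group thus had the lowest median of these 6 groups in both populations and the passenger complex the highest, which was not tested. With CHIR99021 cyclin A2 had -0.07 ± 0.0587 where the receptor was kept and 0.03 ± 0.0587 where it was lost, and Cdk1 -0.08 ± 0.0869 and 0.14 ± 0.0869. Cdk1 read 10.63, 10.68 and 10.69 in untreated BCR-positive, 10.47, 10.35 and 10.73 in untreated BCR-negative, 10.42, 10.72 and 10.60 in treated BCR-positive and 10.59, 10.64 and 10.73 in treated BCR-negative cells of 2564, 2646 and 2676. Its 4 groups overlapped, and the untreated BCR-negative array of 2646 was the lowest of the 12. Spc25, with the widest spread between lymphomas, read 7.40, 8.08 and 8.12 in untreated BCR-positive, 7.20, 7.57 and 8.11 in untreated BCR-negative, 6.93, 7.87 and 7.73 in treated BCR-positive and 7.15, 7.94 and 8.01 in treated BCR-negative cells. In every group the array of 2564 was the lowest.

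**Figure D4:**
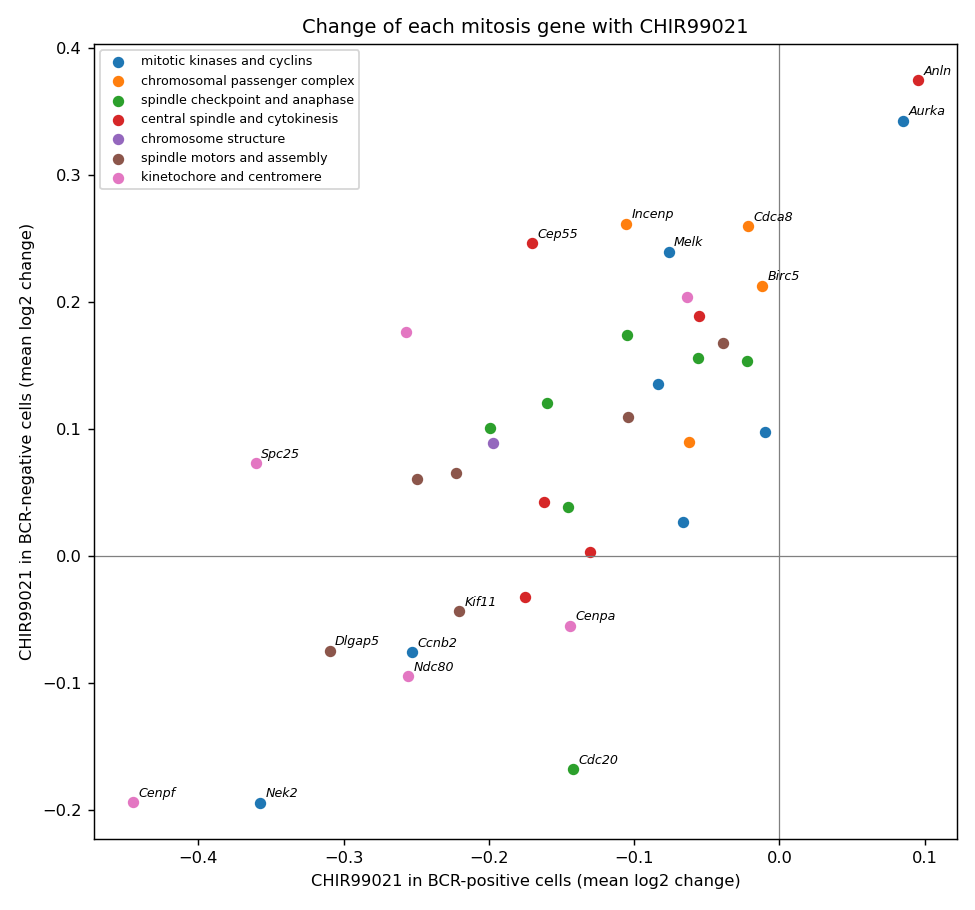
Each point is a mitosis gene, placed by its mean log2 change (n = 3 lymphomas) with CHIR99021 in BCR-positive cells (x axis) and in BCR-negative cells (y axis), coloured by role. Anln and Aurka lie at the top right and Cenpf and Nek2 at the bottom left; 26 of 37 genes lie in the upper left part.

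The interaction addresses whether BCR loss acts differently with and without CHIR99021, which is also whether CHIR99021 acts differently on the BCR-positive and BCR-negative kinds of cell. The interaction was positive for 36 of 37 members, all but Cdc20 (-0.03 ± 0.108), with a median of 0.22 (all genes 0.01) and 0.11, 0.41 and 0.18 by lymphoma. No member passed, nor did any of the 18820 genes (0% called, and 990 at an unadjusted p under 0.05 in either direction), and every member's adjusted p in limma was 0.928 or more. At an unadjusted p under 0.05, 10 members (27%) were positive, against 3.35% of all genes. Nuf2 (0.43 ± 0.148), Spc25 (0.43 ± 0.156) and Cep55 (0.42 ± 0.173) had the highest values and Melk (0.32 ± 0.0967) the smallest p. Without the untreated BCR-negative array of 2646 the median was 0.12 and 4 members were positive at that p. There were 2 without lymphoma 2646, 1 with no replicate block, 5 after cyclic loess and 18 without the untreated BCR-negative array of 2676. The positive interaction was not particular to the members. Of 28 DNA replication genes, described below, 28 were positive, with a median of 0.33 and 17 (60.7%) at an unadjusted p under 0.05. Of 50 genes in a wider mitosis list 48 were positive, with a median of 0.24 and 11 (22%) at that p.

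BCR-negative cells with CHIR99021 and BCR-positive cells without it differ in both receptor and inhibitor. The 37 genes were close, with a median of -0.07 (-0.10, -0.06 and -0.05 by lymphoma), 32 negative and none called (0.0159% of all genes called). Of the 3 members lower at an unadjusted p under 0.05 (8.11%, against 4.05% of all genes), Nek2 had -0.33 ± 0.0717 (limma, adjusted p = 0.179) and Cdc20 -0.26 ± 0.0766, each lower in all 3 lymphomas. Dlgap5 had -0.19 ± 0.0723 and Anln 0.10 ± 0.0879. The count of 3 was 5 without the untreated BCR-negative array of 2646. This comparison shares its untreated BCR-positive arrays with others above, so its values are not a separate check of them.

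Within lymphomas most members varied together. Over the 12 arrays, after subtraction of each lymphoma's mean, the 666 pairs of members had a median Pearson's r of 0.61, and 43 pairs were below 0. The highest was Aurka with Anln (0.964) and the lowest Plk1 with Ccnb2 (-0.446). Against the mean of the other members, Mad2l1 (0.943), Bub1 (0.934) and Tpx2 (0.932) followed it most closely. Cdc20 (0.325), Ccnb2 (0.361), Cenpa (0.421), Cenpf (0.432) and Nek2 (0.473) followed it least, and these 5 were among the 9 with negative means under CHIR99021 in BCR-negative cells. Correlation and change come from the same arrays, so this overlap is not a separate observation. Of genes outside the set, Cdca2 (0.962), Tox3 (0.946), Zbtb1 (0.946), Sgo1 (0.941) and Ncapg2 (0.938) had the profiles most like the members' mean, and the median over all genes outside it was 0.0208. The median was 0.755 over the wider mitosis list and 0.71 over the DNA replication genes, both described below. The profile was thus not particular to the members. The points share arrays and scaling, and include the low array of 2646, so no test is given.

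A wider list of mitosis genes, 50 of 60 measured on probe sets with 1 symbol, had like values. Its median was -0.19 for BCR loss in untreated cultures, 0.06 with CHIR99021, -0.13 for CHIR99021 in BCR-positive cells and 0.11 in BCR-negative cells, where the members had -0.18, 0.05, -0.14 and 0.10. In it Mis12, a kinetochore foundation gene, fell by 0.39 ± 0.0855 with BCR loss in untreated cultures (limma, adjusted p = 0.0395) and rose by 0.44 ± 0.0855 with CHIR99021 in BCR-negative cells (limma, adjusted p = 0.0282). Both comparisons use the untreated BCR-negative arrays, so the fall and the rise are not independent. The phosphatase gene Cdc25b, which switches on Cdk1, rose with BCR loss in untreated cultures (0.39 ± 0.0723; limma, adjusted p = 0.0268). Of the 50 genes, 1 was thus called higher and 1 lower for BCR loss in untreated cultures, where 4.2% of all genes were called. For CHIR99021 in BCR-negative cells 1 was called, where 3.68% of all genes were. Neither share was above that of all genes. The other 48 measured genes of the list were not called in any of the 6 comparisons, and 10 were not analysed here.

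Of the regulators of these genes (18 of 20 measured), 1 was called for BCR loss in untreated cultures, where 4.2% of all genes were, and 3 for CHIR99021 in BCR-negative cells, where 3.68% were. Mybl2 (B-MYB), which works with the MuvB complex on mitosis promoters, had -0.32 ± 0.093 for BCR loss without treatment (limma, adjusted p = 0.0826) and rose by 0.46 ± 0.093 with CHIR99021 in BCR-negative cells (limma, adjusted p = 0.0323). Cdkn1b, which encodes the cyclin kinase inhibitor p27, rose with BCR loss (0.49 ± 0.111; limma, adjusted p = 0.0429) and fell with CHIR99021 in BCR-negative cells (-0.49 ± 0.111; limma, adjusted p = 0.0449). Cyclin G2 (Ccng2), linked to cell cycle arrest, fell there by 1.03 ± 0.172 (limma, adjusted p = 0.017). For Mybl2 and Cdkn1b both comparisons use the untreated BCR-negative arrays, so their opposite changes are not independent. In BCR-positive cells CHIR99021 gave -1.08 ± 0.172 for Ccng2 (limma, adjusted p = 0.0728) and -0.37 ± 0.111 for Cdkn1b, both lower in all 3 lymphomas, and 0.21 ± 0.093 for Mybl2. The cyclin kinase inhibitor gene Cdkn1a went the other way from Cdkn1b, higher with CHIR99021 in all 3 lymphomas in both populations. It had 1.32 ± 0.386 in BCR-positive (limma, adjusted p = 0.258) and 1.46 ± 0.386 in BCR-negative cells (limma, adjusted p = 0.0678). In 2564, 2646 and 2676 Cdkn1a changed by 2.32, 0.74 and 0.89 in BCR-positive and by 2.79, 0.87 and 0.72 in BCR-negative cells. The rise was widest in 2564 in both. Without lymphoma 2646 no gene was called in any comparison, the regulators included.

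DNA replication genes, which dividing cells switch on earlier in the cycle, stood beside the members with larger values for BCR loss in untreated cultures. Of 28 measured, 11 were called lower and the median was -0.34 (-0.21, -0.56 and -0.28 in 2564, 2646 and 2676), while 0 of 37 mitosis genes were called lower; 2.3% of all genes were. Cyclin E1 (Ccne1), which drives entry into S phase, fell by 0.81 ± 0.136 (limma, adjusted p = 0.0209), the replication fork gene Gins3 by 0.54 ± 0.094 (limma, adjusted p = 0.0226) and the ribonucleotide reductase gene Rrm2 by 0.41 ± 0.075 (limma, adjusted p = 0.0268). With CHIR99021 in BCR-negative cells 3 rose (1.91% of all genes were called higher), namely Orc1, Ccne1 and Gins3, with a list median of 0.24 and 0.11, 0.44 and 0.11 by lymphoma. Both comparisons use the untreated BCR-negative arrays, so these rises and the falls above are not independent. For CHIR99021 in BCR-positive cells the order of the medians was the other way, -0.08 for the replication genes and -0.14 for the members. The shares lower at an unadjusted p under 0.05 were alike there, 21.4% of the replication genes and 21.6% of the members. The difference between the lists was not tested.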

How the data were processed

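The deposited values are log2 expression levels of 35556 probe sets on 12 Affymetrix Mouse Gene 1.1 ST arrays, which the authors computed by RMA; the submitters' processing notes name Affymetrix Power Tools (version not given in the sources used here). RMA puts arrays on a common scale, so a shift shared by all genes would not be seen. Array medians over all probe sets ran from 4.7128 to 4.9219, and the number of arrays limits the precision.

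Probe sets were named from the platform annotation: 21218 had 1 symbol, 1881 several and 12457 none listed, and only the first were used. Entrez identifiers of 21185 matched RefSeq, with no symbol changed. The brightest probe set stood for each of 18820 genes. Samples were grouped by BCR status and treatment, as their titles give them. limma 3.58.1 in R 4.3.3 was fitted over all 12 arrays with group and a block for lymphoma (6 residual and 3.659 prior degrees of freedom), with eBayes and Benjamini-Hochberg adjustment over all genes, and genes were called at an adjusted p under 0.05. The fit was tested on simulated data. The labels give each lymphoma by number, so arrays of 1 lymphoma are paired. Deviations from the group mean correlated at 0.813 to 0.907 for 18 pairs of arrays from the same lymphoma and different groups. For 36 other pairs they correlated at -0.574 to -0.248. Deviations cancel within a group, so these negative values follow from the positive ones and are no separate sign of pairing.

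Alternatives were no replicate block, a random replicate block, a block per lymphoma and culture, only the arrays compared, leaving out dim genes (mean under the 30th percentile), the mean of probe sets, array medians subtracted, cyclic loess, eBayes with trend and robust, and leaving out each lymphoma or array. Per comparison, the genes named were those called, the 4 with the smallest p, the largest change each way and examples by role, and from other lists at most 4 called genes. Further members, and the uncalled regulator Cdkn1a, were named for completeness. The members and lists were chosen with earlier results of these data known. Promoters and motifs were read from RefSeq tables (GRCm38.p6). Genes absent from the annotation used were not analysed here.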

Additional observations from a re-analysis of the deposited data

Results flagged for a closer look

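For 7 mitosis genes BCR loss had a negative sign in all 3 lymphomas without treatment and a positive one in all 3 with CHIR99021. The difference between the conditions (interaction, log2) was 0.43 ± 0.148 for Nuf2 and 0.43 ± 0.156 for Spc25, partners in the NDC80 complex. It was 0.32 ± 0.0967 for Melk, 0.29 ± 0.0929 for Kif2c, 0.21 ± 0.123 for Tpx2, 0.21 ± 0.1 for Bub1b and 0.20 ± 0.114 for Ect2. For 4 genes CHIR99021 had a negative sign in all 3 lymphomas in BCR-positive cells and a positive one in all 3 in BCR-negative cells, with the same interaction values for Bub1b and Melk, 0.28 ± 0.111 for Cdca8 and 0.42 ± 0.173 for Cep55. None of these interactions passed the test over all genes (limma, adjusted p from 0.928 to 0.942), and the cause was not tested. The genes were picked by these signs: the first pattern was held by 18.9% of members and 1.25% of all genes, and the second by 10.8% and 1.25%.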

How the results depend on the processing

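Arrays of 1 lymphoma are paired, so the replicate block belongs to the main model. Without it the called genes fell from 791 to 5 for BCR loss in untreated cultures and from 692 to 3 for CHIR99021 in BCR-negative cells, with a random replicate block they numbered 75 and 81, and over only the arrays compared 0 and 29. Without lymphoma 2646 no gene was called in any comparison, and with single arrays left out the counts ran from 45 to 1204 and 51 to 840. Members called for CHIR99021 in BCR-negative cells numbered 1, and 0 with no replicate block, a random replicate block, only the arrays compared or cyclic loess. For BCR loss in untreated cultures 0 were called, 1 with a replicate block per lymphoma and culture and 3 with array medians subtracted. When lymphomas or arrays were left out in turn, these counts ran from 0 to 2 and 0 to 2. The members' median then ran from -0.035 to 0.179 for CHIR99021 in BCR-negative cells, with a negative sign without lymphoma 2646 or its untreated BCR-negative array, from -0.230 to -0.053 for BCR loss in untreated and 0.021 to 0.112 in CHIR99021 cultures, and from -0.104 to -0.039 for treated BCR-negative against untreated BCR-positive cells. It ran from -0.182 to -0.099 for CHIR99021 in BCR-positive cells and from 0.119 to 0.307 in the interaction. Signs turned on leaving out samples for Cenpa (-0.093 to 0.114) and Top2a (-0.21 to 0.0047) in BCR loss in untreated cultures, Aurkb in CHIR99021 cultures (-0.084 to 0.010), Top2a under CHIR99021 in BCR-negative cells (-0.059 to 0.218), Cdc20 in the interaction (-0.098 to 0.065) and Top2a in treated BCR-negative against untreated BCR-positive cells (-0.105 to 0.047). None of these turned values was past the threshold. The cause of these shifts was not tested. With 3 lymphomas, small changes may have gone uncalled.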
